A study of Mus musculus with 2 samples.

Results

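The 10 genes described here encode 8 cathepsins (Ctsa, Ctsb, Ctsc, Ctsd, Ctse, Ctsh, Ctss and Ctsz), the asparaginyl endopeptidase legumain (Lgmn) and cystatin C (Cst3). They were chosen by name, and their probe sets were taken by the gene symbol that the platform annotation gives. All 10 were found, through 16 of the 22690 probe sets of the array, and all 10 were among the 12393 genes that had a probe set with 1 symbol. CD4+ T cells were sorted magnetically from spleens, and their RNA was hybridised to 2 arrays, 1 from DBA/1 mice and 1 from C57BL/6 mice. Mice of both strains had been immunised with glucose-6-phosphate isomerase (GPI), and the cells were taken on day 7. DBA/1 mice develop arthritis after this immunisation and C57BL/6 mice resist it, and the study looked for molecules that the cells of the susceptible strain express strongly. The sources used here give neither the age of the mice nor the number behind each RNA sample, and no unimmunised array was analysed here.

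Cathepsins are proteases of endosomes and lysosomes. Most are cysteine proteases, Ctsd and Ctse are aspartic proteases, and Ctsa is a serine carboxypeptidase. In cells that present antigen they trim the invariant chain and cut proteins into peptides for MHC class II molecules. Cystatin C is a secreted inhibitor that binds cysteine cathepsins in their active site, and it can also inhibit legumain. Several of these genes are expressed at high levels in macrophages, dendritic cells and B cells.

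The probe sets of 4 of the 10 genes gave signals at least 2-fold higher in DBA/1: Ctse (3.79-fold), Cst3 (2.90-fold), Lgmn (2.57-fold) and Ctsh (2.13-fold). None was at least 2-fold higher in C57BL/6. The second probe set of Ctse pointed the other way, so the value for this gene depends on the probe set read. The other 6 genes differed by less: Ctsa was 1.65-fold higher in DBA/1, and Ctsb, Ctsc, Ctsd, Ctss and Ctsz lay between 1.05-fold and 1.35-fold. In RNA of a sorted population, fewer cells of a type and less RNA per cell cannot be told apart.

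A single array per strain allows neither a test nor a replicate error, and the size of a difference is all that can be given. Each gene is read from its brightest probe set, that of the highest mean over both arrays on the log2 scale, and a difference is given as log2 of the DBA/1 signal divided by the C57BL/6 signal. A gene passed the minimum signal if it reached the 75th percentile of the array on at least 1 of the 2 arrays. This held for 3920 genes, among them all 10. Lgmn passed through DBA/1 only, since its C57BL/6 signal of 106 lay under the cut of 162. Its place among the 3920 thus rests on the array where it was high. Of the 3920 genes, 3.98% read at least 2-fold higher in DBA/1, and 1.99% did so in C57BL/6. Among the 2530 of them whose higher signal lay between 273 and 2758, the range of the 10 genes, the shares were 3.68% and 1.62%. At 1.5-fold, 5 of the 10 were higher in DBA/1, against 12.3% of the 3920 genes, and none was higher in C57BL/6, against 4.97%. The median log2 ratio was 0.58 over the 10 genes and 0.13 over the 3920. Ranked from the highest ratio in DBA/1, Ctse stood at 33 of 3920, Cst3 at 56, Lgmn at 77, Ctsh at 121 and Ctsa at 326, while Ctsd stood at 2163.

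**Figure D1:**
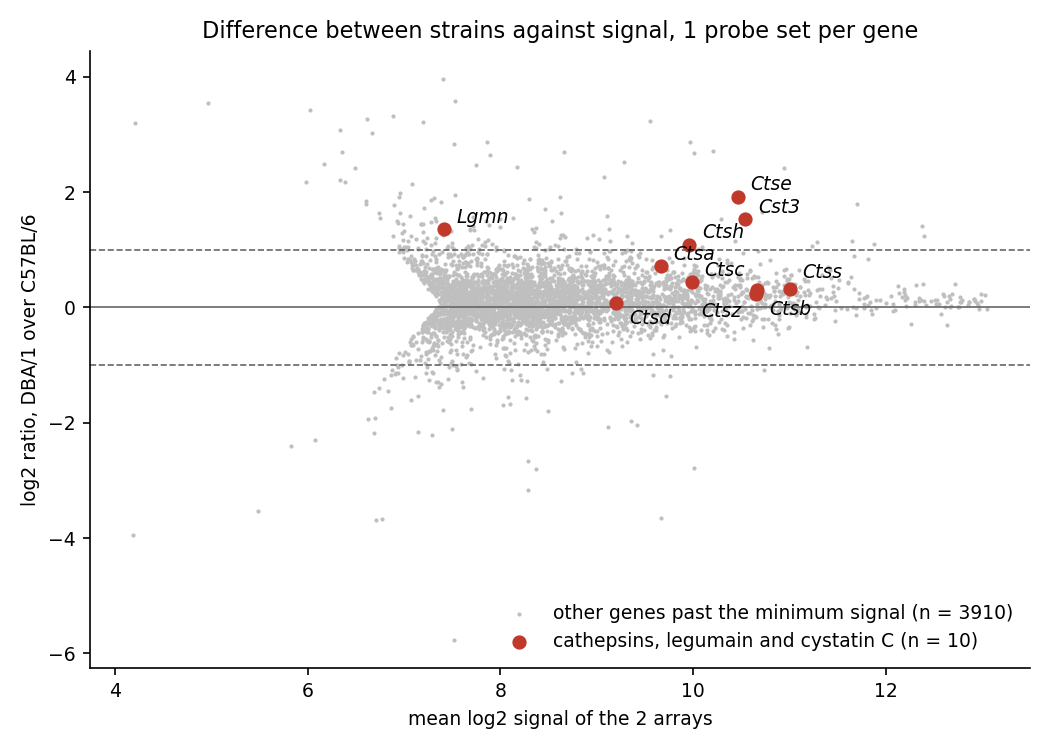
Log2 ratio of DBA/1 over C57BL/6 (vertical axis) against the mean log2 signal of both arrays (horizontal axis), 1 point per gene; grey points are the other 3910 genes past the minimum signal, and dashed lines mark 2-fold. Ctse, Cst3, Lgmn and Ctsh lie above the upper line, and the other 6 genes lie between the lines.

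The signals of the 2 arrays differed slightly as a whole. Over the 10774 probe sets above the median signal of both arrays, the median log2 ratio was 0.09. What gave this offset was not tested. Removing this offset by median centring left 4 genes at least 2-fold higher, while quantile normalization and lowess left 3, because Ctsh lay at 0.94 under either. As deposited, 156 of the 3920 genes read at least 2-fold higher in DBA/1 and 78 in C57BL/6; median centring gave 122 and 95, quantile normalization 117 and 92, and lowess 118 and 92. The median over these genes was 0.13 as deposited and 0.01 after quantile normalization or lowess.

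Of the endopeptidases that act on antigens and on the invariant chain, the cysteine protease Ctss read 2302 in DBA/1 and 1833 in C57BL/6. Ctss removes the last part of the invariant chain in B cells and dendritic cells, and its log2 ratio of 0.33 fell to between 0.14 and 0.24 under the 3 scalings. Lgmn, which cuts after asparagine and processes other cathepsins, read 273 in DBA/1 and 106 in C57BL/6. This was a log2 ratio of 1.36, and it stayed between 1.14 and 1.36 under all alternatives run. Lgmn and Ctss thus differed by unequal amounts between the same arrays, although both take part in class II processing.

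Ctsb, a lysosomal cysteine protease found in many cells, had 4 probe sets. The 2 with the highest signals read 1808 and 1439 in DBA/1 and 1463 and 1241 in C57BL/6, which are log2 ratios of 0.31 and 0.21. The dimmer probe sets read 122 and 91.9 (ratio 0.41) and 49.3 and 56.6 (ratio -0.20). The last of them lies close to the median signal of the arrays, which is 37.6 for DBA/1 and 38.04 for C57BL/6. Its direction differs from that of the other 3, and all 4 ratios lie within 0.61 of each other.

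Ctsh, an aminopeptidase that also matures other lysosomal and secretory proteins, read 1457 in DBA/1 and 684 in C57BL/6. The gene has 1 probe set, and its log2 ratio was 1.09. Ctsc, the dipeptidyl peptidase that activates the serine proteases of neutrophil and cytotoxic granules, read 1178 and 872. Its ratio of 0.43 was smaller than that of Ctsh, and it lay between 0.28 and 0.43 over the alternatives.

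Ctsz, a carboxypeptidase also called cathepsin X, had 3 probe sets that all read higher in DBA/1 by unequal amounts. The brightest, 1417868_a_at, read 1742 in DBA/1 and 1482 in C57BL/6, a log2 ratio of 0.23. Probe set 1417870_x_at read 859 and 434, a ratio of 0.98, and 1417869_s_at read 444 and 345, a ratio of 0.36. The highest and lowest ratio lie 0.75 apart. The suffixes _s_at and _x_at mark probe sets that can also match other transcripts, and what gave the gap was not tested. The mean of the 3 ratios was 0.53.

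Ctse, the aspartic protease of endosomes, gave the largest ratio among the 10 genes and also the largest disagreement. Probe set 1418989_at read 2758 in DBA/1 and 727 in C57BL/6, a log2 ratio of 1.92. Probe set 1427797_s_at read 437 in DBA/1 and 575 in C57BL/6, a log2 ratio of -0.40. One probe set therefore puts DBA/1 far above C57BL/6 and the other puts it below. Their ratios differ by 2.32. In the 1140 genes whose 2 brightest probe sets both passed the minimum signal and lay above the median of both arrays, the SD of that difference was 0.41, and 4 pairs (0.351%) were at least as far apart as those of Ctse. The mean of both ratios was 0.76, under 2-fold. What gave the gap was not tested.

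**Figure D2:**
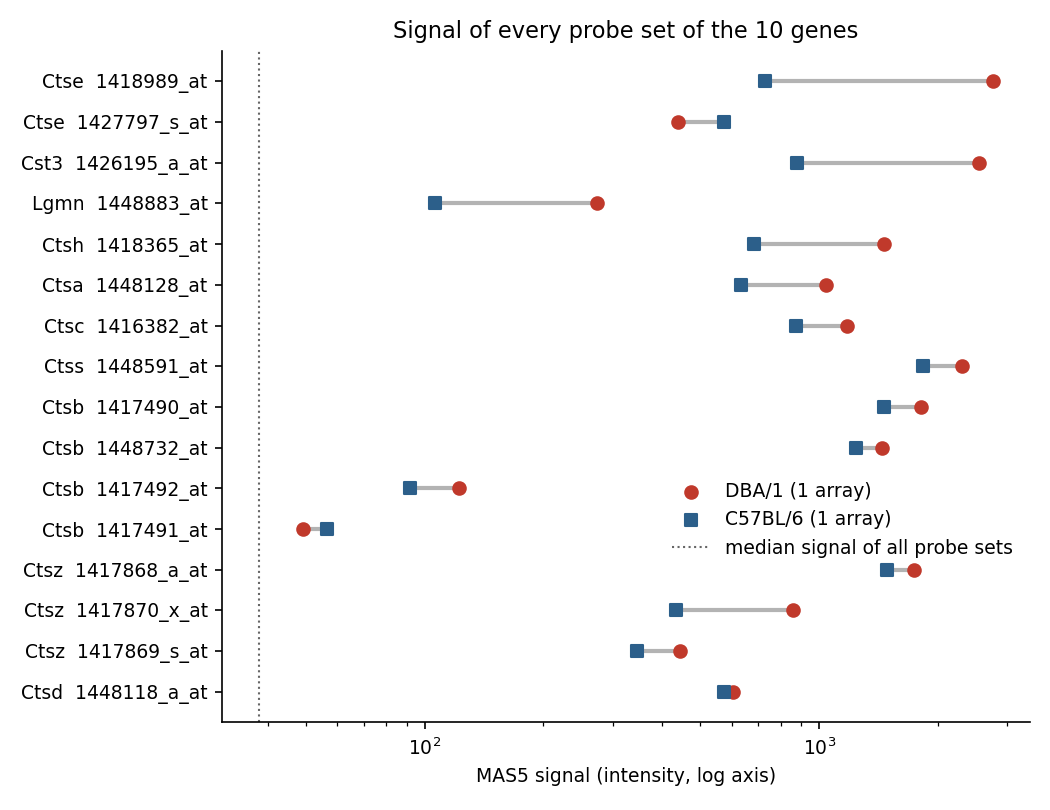
MAS5 signal (intensity, log axis) of the 16 probe sets of the 10 genes, 1 line per probe set; circles are the DBA/1 array, squares the C57BL/6 array, and the dotted line is the higher of the medians of the 2 arrays, 38.04. In 14 probe sets the DBA/1 circle lies to the right, and in 1427797_s_at (Ctse) and 1417491_at (Ctsb) it lies to the left.

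Across all probe sets of the 10 genes, 14 of 16 read higher in DBA/1 and 2 in C57BL/6. As deposited, the median log2 ratio of the 10774 probe sets above the median signal of both arrays was 0.09. Most of these probe sets therefore read higher in DBA/1 too. Counts of genes with any higher signal in DBA/1, here and below, include this lean. No share of all genes higher in DBA/1 was computed to set beside them, so they set no list apart from other genes. At least 2-fold differences were seen in 4 of the 16 toward DBA/1 and in none toward C57BL/6, against 3.68% and 2.47% of the 5551 probe sets past the minimum signal; 14 of the 16 passed that minimum. All 4 are the brightest or the only probe set of their gene. A single probe set read 7 of the genes, among them Cst3, Lgmn and Ctsh, so no second probe set could be set beside their values. Between the 2 brightest probe sets of a gene, the log2 ratios differed with an SD of 0.43 over 2325 genes, which gives an error of 0.31 for 1 probe set. In the order of the 10 ratios, from Ctse to Ctsd, neighbours lay 0.02 to 0.39 apart, so no neighbouring pair differed beyond that SD. This is a probe error only and holds nothing of the variation between mice, sorts or labelling reactions.

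Ctsd, the main aspartic protease of lysosomes, read 606 in DBA/1 and 575 in C57BL/6. Its log2 ratio was 0.08 as deposited and between -0.06 and -0.01 under the 3 scalings, so it has no settled direction. Ctsa, a carboxypeptidase that also protects the sialidase and beta-galactosidase of the lysosome, read 1043 and 633. Its ratio of 0.72 was above 0.31, which is 1 SD of the probe error alone, and lay between 0.58 and 0.72 over the alternatives. The aspartic proteases Ctsd and Ctse, read from their brightest probe sets, thus differed by 0.08 and 1.92.

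Cst3, the inhibitor of the set, read 2546 in DBA/1 and 877 in C57BL/6. Its log2 ratio was 1.54, and 1.37 to 1.54 over the alternatives. The ratio is larger than that of Ctsb (0.31), Ctsc (0.43), Ctsh (1.09), Ctss (0.33) and Ctsz (0.23), the cysteine cathepsins read on the same arrays. Its distance from Ctsh, 0.45, is close to the SD of 0.43 between probe sets of a gene. A ratio within the arrays shows unequal differences and gives no amount of inhibitor against protease.

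**Figure D3:**
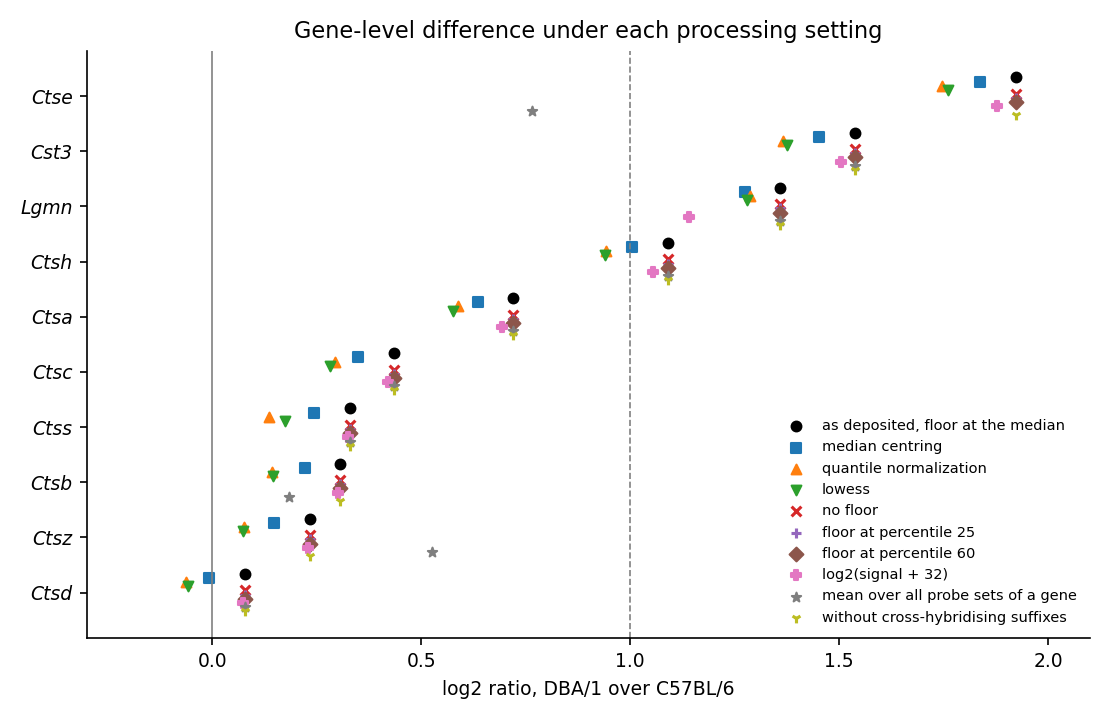
Log2 ratio of DBA/1 over C57BL/6 (horizontal axis) of each gene under each processing setting (symbols), with lines at 0 and at 2-fold. Under the 3 scalings each gene lies to the left of its value as deposited, Ctsd crosses 0, Ctsh crosses the 2-fold line, and the mean over probe sets moves Ctse to 0.76.

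The starts of 7 of the 10 genes matched a RefSeq table of promoter windows (build GRCm38.p6); no window was matched for Ctsb, Ctse and Ctsh. The 250 bases before each start were searched on both strands for the E-box CACGTG, the core of the element bound by the lysosomal regulator TFEB, and for the longer GTCACGTG, which contains it. CACGTG lay in 3 of the 9 windows of these genes, for Ctsa, Ctsd and Lgmn, against 6.02% of the 32851 windows in the table. GTCACGTG lay in the same 3 windows, against 1.85% of all windows. Ctsa and Lgmn have 2 starts each, and the match lies before the downstream start. The match begins 12 bases before the start in Ctsa, 49 in Lgmn and 245 in Ctsd, the last near the far edge of the window. A match describes these letters only. The 3 stretches of 30 bases are printed 5′ to 3′ on the strand of the gene because they are the windows in which the 3 genes share a motif; the capitals mark CACGTG.
Ctsa, chr2:164833743-164833772, plus strand: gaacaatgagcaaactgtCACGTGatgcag
Ctsd, chr7:142388048-142388077, minus strand: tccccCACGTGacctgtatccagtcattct
Lgmn, chr12:102439124-102439153, minus strand: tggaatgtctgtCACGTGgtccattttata
The 3 genes that share these letters had log2 ratios of 0.72, 0.08 and 1.36, so they did not differ between the strains by a like amount.

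Cst3 had the largest ratio among the genes with a window, and the 250 bases before its start hold neither motif. They are shown whole, on the strand of the gene, as the window of the gene with the largest difference; G and C make up 59.6% of them, against a median of 52.4% over all windows.
Cst3, chr2:148875513-148875762, minus strand: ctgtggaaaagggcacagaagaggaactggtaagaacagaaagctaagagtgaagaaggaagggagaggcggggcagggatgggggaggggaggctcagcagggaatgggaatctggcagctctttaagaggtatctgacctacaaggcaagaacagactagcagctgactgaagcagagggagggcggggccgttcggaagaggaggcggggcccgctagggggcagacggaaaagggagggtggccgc

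Of 9 other cathepsin genes listed, 8 were measured, and only Ctsg, Ctsl and Ctsw exceeded the median signal on at least 1 array. These 3 did not share a direction. Ctsg, a serine protease of neutrophil granules, read 149 in DBA/1 and 42.5 in C57BL/6 (3.49-fold). Neither signal of Ctsg reached the minimum signal, and that in C57BL/6 lay close to the array median of 38.04. Ctsw, a cathepsin of cytotoxic lymphocytes, read 207 and 407, and Ctsl, a cysteine protease of many cells, read 339 and 469. The latter were 1.96-fold and 1.39-fold higher in C57BL/6. The bone-resorbing protease Ctsk and Ctsf, Ctsj, Ctsm and Ctsll3 lay under the median signal on both arrays.

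Of 21 listed inhibitors, 12 were measured and 8 exceeded the median signal. The median log2 ratio of the 8 was 0.30, 7 were higher in DBA/1, and 2 were at least 2-fold higher there, against 3.84% of the 6936 genes above the median signal on at least 1 array, whose median was 0.10. Serpinb1a, an inhibitor of neutrophil serine proteases, read 639 in DBA/1 and 53.4 in C57BL/6, and its second probe set read 85.5 in DBA/1 and lay under the median in C57BL/6. The stefin gene Stfa3, an intracellular cystatin, read 110 in DBA/1 and lay under the median in C57BL/6, so that it was at least 2.89-fold higher in DBA/1. Serpinb6a, an inhibitor of cathepsin G, was 1.86-fold higher. The other cystatins above the median were closer: Cstb lay at 0.28 and 0.70 in its 2 probe sets and Cst7 at 0.31, both genes being named after their values were seen. Cst3, at 1.54, thus had a higher ratio than Cstb or Cst7. The ratio of Stfa3 is a lower bound of 1.53, so Stfa3 cannot be placed under Cst3.

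Of 29 lysosomal hydrolases and cofactors above the median signal, 21 read higher in DBA/1, and the list median was 0.33 beside 0.10 for all 6936 genes. This list median lay between 0.20 and 0.25 under the 3 scalings. It fell to 0.11 with the mean over probe sets, for which no median of all genes is given. Among genes read as higher, Lipa had other probe sets at -0.85 and -0.29 and Man2b1 at -0.86. Both are named after their values were seen. The difference reached 2-fold for 2 of the 29, against 3.84% of the 6936. Ppt1, which removes palmitate from proteins, read 615 and 257 and was 2.39-fold higher, with its second probe set at 1.30 on the log2 scale. The acid phosphatase Acp2 read 112 and 55.0, and its 3 probe sets lay at 1.03, 0.54 and 1.01. Idua, which degrades glycosaminoglycans, was 1.81-fold higher in C57BL/6, where it read 80.8. No gene of this list was at least 2-fold higher in C57BL/6, against 1.90% of the 6936 genes.

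Of 25 genes of the lysosomal membrane, sorting and biogenesis, 18 read higher in DBA/1, and the median was 0.15. The difference reached 2-fold for 1 of the 25, a share near the 3.84% of all 6936 genes. This gene was Lamp2, a main glycoprotein of the lysosomal membrane, which read 722 in DBA/1 and 314 in C57BL/6 and whose 4 probe sets lay between 0.38 and 1.31. Cd68, a macrophage lysosomal glycoprotein, was 1.65-fold higher, and the phagosome metal transporter Slc11a1 at least 1.62-fold. Tfeb itself read 71.5 and 64.5, a log2 ratio of 0.15, and is named after its value was seen. The median of this list lay between 0.05 and 0.21 over the alternatives, beside 0.10 for all genes as deposited. Under the 3 scalings it lay between 0.06 and 0.07, and the median of the 3920 genes past the minimum signal between 0.01 and 0.04. No median of all genes is given for the other alternatives.

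Of 9 class II loading partners, 8 read higher in DBA/1 and 1 in C57BL/6, with a median of 0.84; the differences of 2 of the former and of the latter reached 2-fold, against 3.84% and 1.90% of the 6936 genes. Ciita, the class II transactivator, read 204 and 72.6, and H2-Oa, a modulator of peptide exchange, read 842 and 377. Among genes under 2-fold in their brightest probe set, H2-Aa had another probe set at 1.64 on the log2 scale and H2-Ab1 another at 1.44, both genes being named after their values were seen. H2-Eb1 read 230 in DBA/1 and 2887 in C57BL/6 from 1 probe set. The invariant chain Cd74, the substrate of Ctss, read 5213 and 4187, a log2 ratio of 0.32 beside 0.33 for Ctss; Cd74 is named after its value was seen.

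**Figure D4:**
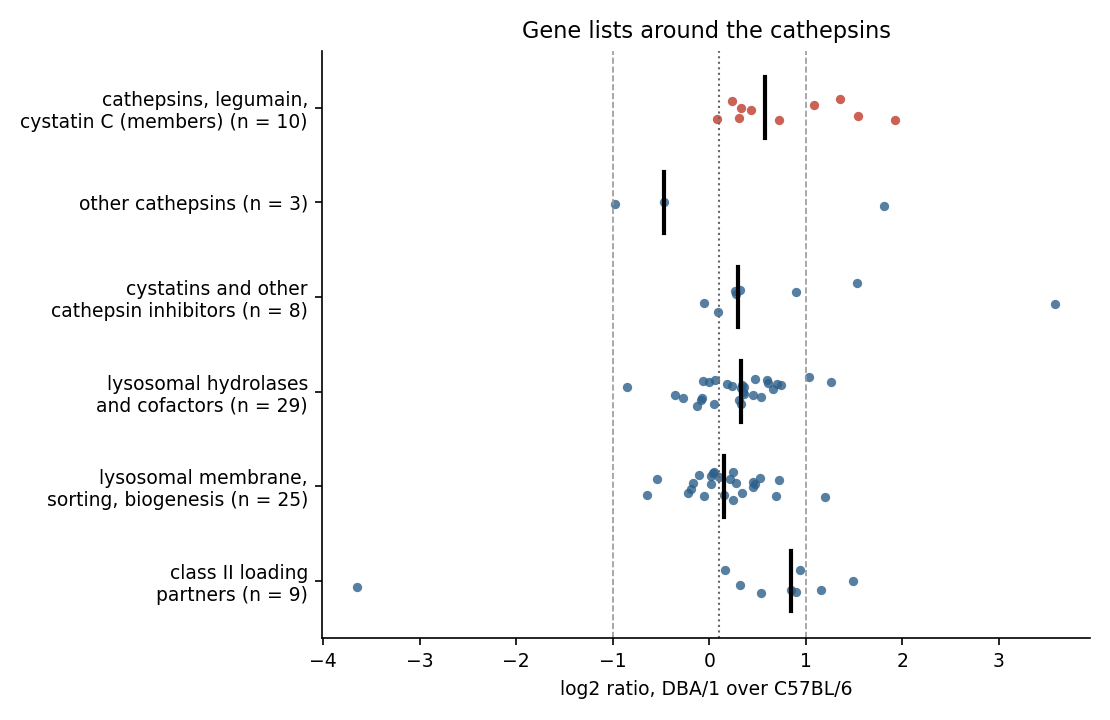
Log2 ratio of DBA/1 over C57BL/6 (horizontal axis) of the genes above the median signal in each list (rows), 1 point per gene with vertical scatter only for legibility; black bars are list medians, the dotted line is the median of 6936 genes, 0.10, and dashed lines mark 2-fold. The median of the 10 genes is 0.58, that of the class II loading partners 0.84 and that of the membrane and sorting list 0.15.

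Markers of other spleen cells moved with the strains, and none of the 10 genes is on a marker list. T cell markers had a median of -0.06 over 8 of 8 genes, with summed signals of 11577 in DBA/1 and 12036 in C57BL/6, so the labelled cell type was present on both arrays. Macrophage and monocyte markers had a median of 0.90, with 14 of 15 higher in DBA/1 and summed signals of 7294 and 3246. Dendritic cell markers had a median of 0.88 over 9 genes, 6 of them higher in DBA/1, with sums of 3668 and 2709, while Xcr1 lay under the median signal on both arrays. The other 3, named after their values were seen, were Bst2 (-0.74), Tcf4 (-0.55 in its brightest probe set) and Ccr7 (-0.20). B cell markers had a median of 1.11 over 8 genes, 7 of them higher, with sums of 1646 and 836, while Pax5 and Vpreb3 lay under the median signal on both arrays. The remaining B cell marker, Cd72, read 45.0 in DBA/1 and 146 in C57BL/6, a log2 ratio of -1.70. It is named after its value was seen. Neutrophil markers, which include Ctsg, were all 13 higher, with a median of 1.81 and sums of 35015 and 10773. CD8 T and NK markers, which include Ctsw, were all 8 higher in C57BL/6, with a median of -1.01 and sums of 551 and 1568. Erythroid markers had a median of -0.29 over 3 genes, with sums of 688 and 840. Their part in the ratios of the 10 genes was not tested.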

How the data were processed

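The deposited values are MAS5 intensities per probe set on a linear scale, 1 column per array, per the submitters' processing notes, which name MAS5; the sources used here give no version, scaling target or detection calls. Total RNA (3 µg) was labelled from the poly(A) end with biotin, per the labels' protocols. Genes were taken from probe sets with exactly 1 symbol (20380 of 22690; 691 have several, 1555 none, 64 are controls). Signals under the median of their array were set to it, so a ratio with 1 side there is a bound ("at least N-fold"). The minimum signal was the 75th percentile of an array (171 for DBA/1, 162 for C57BL/6). From these intensities log2 ratios were computed with Python 3.11.15, pandas 2.3.3 and statsmodels 0.14.6; the code was tested on simulated data. The 2 arrays limit the precision, and no test was possible.

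The members, gene lists and alternatives were chosen with earlier results of these data known. All probe sets of the 10 genes are given, and of each list of other cathepsins, inhibitors, lysosomal genes and class II partners the 3 genes with the largest absolute ratio; marker lists are given by counts, medians and sums, and exceptions are said to be named after their values were seen. Alternatives were median centring, quantile normalization, lowess (span 0.3), log2(signal + 32), removing the floor, setting it at percentile 25 or 60, the mean over probe sets, omission of suffixed probe sets, and a threshold of 1.5-fold.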

Additional observations from a re-analysis of the deposited data

How the results depend on the processing

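Over the alternatives the number of genes at least 2-fold higher in DBA/1 was 3 or 4, 5 at a threshold of 1.5-fold, and the number past these thresholds toward C57BL/6 was 0; both numbers come from ratios alone, since no test was possible with 1 array per strain. The former was 3 after quantile normalization and lowess, where Ctsh lay under 2-fold, and with the mean over probe sets, where Ctse lay at 0.76. The median over the 10 genes lay between 0.43 and 0.62. The number of genes with any higher signal in DBA/1 was 9 under the 3 scalings, where Ctsd changed sign, and 10 otherwise. Of 249 recomputed log2 ratios and medians, 5 moved by more than the probe error of 0.31, and none that was at least 2-fold changed sign. Part of the 249 could not move. The brightest probe set of each of the 10 genes lay above every floor used, so the floor settings left its ratio unchanged. Leaving out suffixed probe sets kept that same probe set, and the mean over probe sets could change only the 3 genes with several. Besides Ctse, setting the floor at percentile 25, or using none, gave a CD8 T and NK marker median of -1.38. A neutrophil marker median of 1.41 was found for the floor at percentile 60 and of 1.40 for log2(signal + 32). The spread between probe sets was 0.40 over all 4956 pairs with the floor. These include pairs whose probe sets all lay under the floor, where the ratios are equal by construction. The value of 0.40 is therefore no check on the 0.43 found above the floor. No paired analysis was possible because each strain has 1 array. Differences under about 0.31 cannot be told from probe error here. A larger difference is not thereby told from error, since 0.31 is only 1 SD of the probe error. It also holds nothing of the variation between mice, sorts or labelling reactions.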

Other observations

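The genes next to the 4 with the largest ratios were read to see what the arrays show around them. In the RefSeq gene order, 5 protein-coding genes on each side of Ctse, Cst3, Lgmn and Ctsh make 40 positions, of which 11 held a gene above the median signal on at least 1 array. None of the 11 was at least 2-fold apart, and their log2 ratios lay between -0.36 and 0.67. Among the 6936 genes above the median signal, differences of this size made up 3.84% toward DBA/1 and 1.90% toward C57BL/6. With shares this small, 11 genes are too few for the count to set the neighbours apart from other genes. Whether the differences of the 4 genes extend to their surroundings was not tested. Around Ctse, Rassf5, a regulator of lymphocyte adhesion, lay at -0.06, the kinase gene Ikbke at -0.36, Srgap2 at -0.03, the magnesium transporter gene Slc41a1 at -0.03 and Rab29 at 0.57. Tmed3, near Ctsh, lay at 0.67, and Golga5, next to Lgmn, lay at 0.35. Also around Lgmn, Cpsf2 lay at 0.43, Itpk1 at 0.03 and Ndufb1 at -0.08, the last with its DBA/1 signal under the median. Zfp120 was the 1 measured neighbour of Cst3, at -0.16; the adjoining cystatin genes were under the median signal or had no probe set with 1 symbol. All of these genes were chosen by position alone.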
